A study of Mus musculus with 6 samples.

Results

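The receptors that read bone morphogenetic proteins (BMPs), activins and TGF-beta were followed in mouse 2H11 cells, through 9 genes chosen by name: Bmpr1a, Acvr1 and Tgfbr1 (type I receptors), Bmpr2, Acvr2a, Acvr2b and Tgfbr2 (type II receptors), Tgfbr3 (a co-receptor) and Bambi (a pseudoreceptor). Of these, 8 had a row among the 11773 genes of the deposited gene table, and the same 8 had 11 of the 22330 rows of the transcript table. Acvr2b had no row in either table, and its level is not analysed here. All 8 genes and all 11 transcripts passed the filter of a mean of at least 0.5 FPKM.

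Polyadenylated RNA came from 6 libraries of the established line 2H11. The labels describe its source as C3H/HeJ axillary lymph node and its cells as endothelial. Cells were starved, and 3 libraries received BMP4 and 3 received BMP4 with palovarotene, each for 48 h at doses that the labels leave out. Every library had BMP4, so the effect of BMP4 itself was not measured. Whether each library was a culture of its own is not stated, and every p-value here reflects the variation among these libraries, which may be technical. Palovarotene is a synthetic retinoid that activates retinoic acid receptor gamma.

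A ligand of this family brings together type I and type II receptors, which are serine/threonine kinases. The type II receptor phosphorylates the type I receptor, which then phosphorylates a SMAD protein. BMP type I receptors act on SMAD1, SMAD5 and SMAD9, and the activin and TGF-beta type I receptors on SMAD2 and SMAD3. ACVR1 is also the receptor that is mutated in fibrodysplasia ossificans progressiva, a human disease of bone formation in soft tissue for which palovarotene was developed.

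The values are FPKM, fragment numbers scaled to transcript length and to library size. Gene and transcript FPKM differ by a factor that varies between genes, so an order of genes by level can differ between these scales. Comparisons of level between genes use gene values here, and which scale suits them better was not tested. Per library, the sum over listed genes was 244119 to 251290 FPKM. Pearson's r of log2(FPKM + 1) across genes, which are not independent replicates, was 0.989 to 0.992 within BMP4, 0.993 within BMP4 + palovarotene and 0.956 to 0.960 between the groups. Of 11 endothelial markers, 4 had a row (Tek, Vwf, Flt1 and Flt4), and the others, Pecam1, Cdh5 and Kdr among them, are not analysed here. The endothelial markers summed to between 7.64 and 8.43 FPKM in the BMP4 libraries and to between 4.71 and 5.25 with palovarotene, against 933 to 998 and 1078 to 1133 for the 7 fibroblast and mesenchymal markers. Of 4 leukocyte markers, 3 had a row, and they summed to between 18.2 and 19.1 FPKM and to between 11.7 and 12.3. None of 4 epithelial markers had a row. Members of these lists went both ways: Tek, Vwf and Flt1 were called lower and Flt4 higher (1.06 to 3.04 FPKM), and of the fibroblast and mesenchymal markers Pdgfrb, Dcn, Lum and Thy1 were called lower and Pdgfra and Col1a1 higher. Col1a1, at 523 FPKM with BMP4 and 684 with palovarotene, made up most of that sum.

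The sequences shown here belong to the pair of receptor genes that fell with palovarotene, Acvr1 and Tgfbr2. The first set holds their promoters, 250 bases before to 50 bases after the start that RefSeq gives the gene, on the coding strand, on GRCm38.p6. That of Acvr1 is chr2:58566779-58567078 on the minus strand and that of Tgfbr2 is chr9:116175314-116175613 on the minus strand. The RefSeq start of Acvr1, at 58566828, is that of Acvr1-204; Acvr1-201 starts upstream at 58567157, so this window lies inside the bounds of the gene in the deposited table. The RefSeq start of Tgfbr2, at 116175363, lies 3 bases from that of Tgfbr2-201. Tgfbr2-202, which made up most of the summed Tgfbr2 transcripts, starts at 116175265, downstream of the Tgfbr2 window. Capitals mark matches to the motifs searched.
Acvr1: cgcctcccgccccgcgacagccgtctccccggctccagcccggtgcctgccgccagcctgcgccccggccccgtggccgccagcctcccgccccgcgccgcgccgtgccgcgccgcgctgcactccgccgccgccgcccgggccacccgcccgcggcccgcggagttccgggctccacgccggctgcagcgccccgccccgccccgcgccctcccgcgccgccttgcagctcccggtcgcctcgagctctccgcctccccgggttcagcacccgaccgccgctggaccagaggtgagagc
Tgfbr2: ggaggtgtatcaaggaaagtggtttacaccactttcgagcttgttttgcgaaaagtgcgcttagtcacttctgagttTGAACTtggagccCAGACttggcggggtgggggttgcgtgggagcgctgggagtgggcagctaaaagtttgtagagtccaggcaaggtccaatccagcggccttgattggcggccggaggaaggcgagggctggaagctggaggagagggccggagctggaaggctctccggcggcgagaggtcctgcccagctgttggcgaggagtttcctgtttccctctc

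The second sequence is the exon that separates the listed transcripts of Tgfbr2. It is exon 2 of Tgfbr2-202, at chr9:116158271-116158345 on the minus strand of GRCm38 in GENCODE vM21. Its 75 bases lie wholly in the coding sequence, add 25 codons, and are absent from Tgfbr2-201.
Tgfbr2-202, exon 2: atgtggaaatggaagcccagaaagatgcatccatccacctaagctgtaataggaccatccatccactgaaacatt

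With palovarotene, Acvr1 fell by 18.1% and Tgfbr2 by 18.8% of their mean FPKM with BMP4 alone, and Tgfbr3 rose by 10.3%. Bmpr1a, Tgfbr1, Bmpr2, Acvr2a and Bambi did not pass the test. A gene was called changed at a limma adjusted p below 0.05, adjusted over all 11584 genes tested. By that rule 3 of the 8 receptor genes were called, where 43.0% of all genes tested were called; 1 was called higher, against 19.1% of all genes, and 2 lower, against 23.8%. The median log2 fold change of the 8 was 0.04, beside -0.03 over all genes tested, and the median absolute log2 fold change was 0.12, beside 0.18. The balance over all genes depended on scaling. With median-ratio scaling of the libraries 2514 genes were called higher and 2417 lower, against 2217 and 2759. The median over all genes tested was then 0.0004, and 1 receptor gene was still called higher and 2 lower. Log2 fold changes are those of FPKM + 1, BMP4 + palovarotene minus BMP4. The groups of 3 libraries did not overlap in 4 of the 8 genes (Acvr1, Tgfbr2, Tgfbr3 and Bambi), and in 54.9% of all genes tested.

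**Figure D1:**
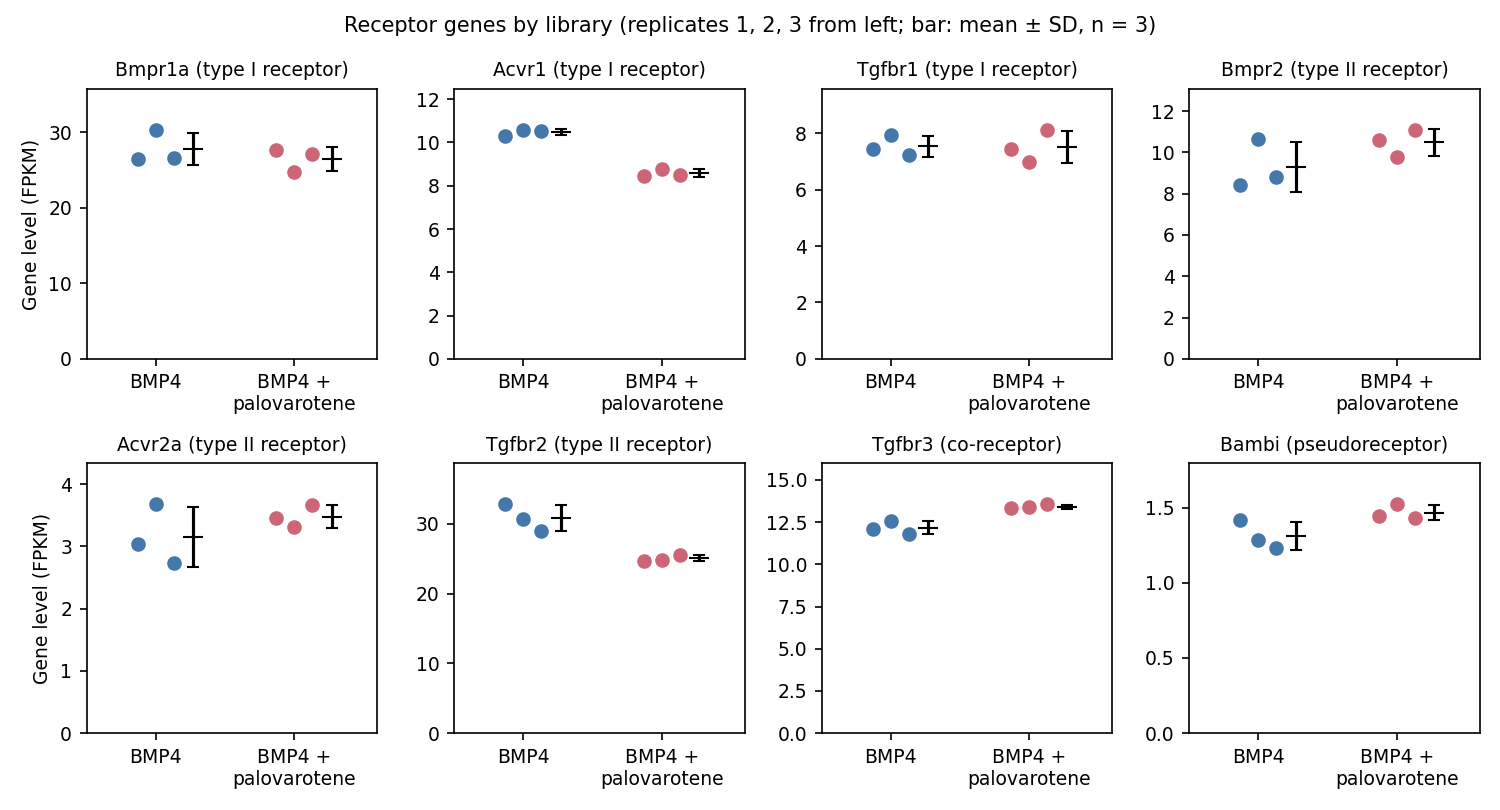
Gene level in FPKM (y axis, from 0, a scale of its own in each panel) of the 8 receptor genes in the 3 BMP4 and the 3 BMP4 + palovarotene libraries; points are libraries in the order of their replicate number, and bars are the mean ± SD (n = 3). Acvr1 and Tgfbr2 lie lower with palovarotene with no overlap, while the points of Bmpr1a, Tgfbr1, Bmpr2 and Acvr2a overlap.

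Among the type I receptors, Acvr1 fell. Acvr1 (ENSMUSG00000026836.15, chr2:58388644-58567157, minus strand, GRCm38) encodes ALK2, a type I receptor for BMPs. Its level was 10.3, 10.6 and 10.5 FPKM in the BMP4 libraries and 8.45, 8.78 and 8.49 with palovarotene. All 3 palovarotene libraries lay below all 3 BMP4 libraries, and the spread within each group was small. Mean FPKM was 10.5 ± 0.140 with BMP4 and 8.58 ± 0.181 with palovarotene (SD, n = 3), and the log2 fold change was -0.26 ± 0.044 (SE; limma adjusted p = 0.00313). The absolute log2 fold change was larger in 35.0% of all genes tested. Its bounds overlap those of Gm17409, a protein-coding gene on the other strand. Whether their exons overlap was not checked, and the labels do not say whether counting used strand. Part of the Acvr1 value could thus be reads of that gene.

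Bmpr1a (ENSMUSG00000021796.15, chr14:34410734-34503341, minus strand) encodes ALK3, a main type I receptor for BMP4. It was at 26.5, 30.3 and 26.6 FPKM with BMP4 and at 27.6, 24.7 and 27.1 with palovarotene. The groups overlapped, with the highest value in BMP4 replicate 2 and the lowest in BMP4 + palovarotene replicate 2. The log2 fold change was -0.07 ± 0.069 (SE; limma adjusted p = 0.461). Gm17110, an antisense gene, overlaps it. On the FPKM + 1 scale, which all intervals of ratios here use, the 95% interval of the ratio ran from 0.851 to 1.07.

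Tgfbr1 (ENSMUSG00000007613.15, chr4:47353222-47414931, plus strand) encodes ALK5, the type I receptor for TGF-beta. Its values were 7.44, 7.95 and 7.23 FPKM with BMP4 and 7.44, 6.99 and 8.11 with palovarotene. The range with palovarotene enclosed that with BMP4, and the 95% interval of the ratio was 0.894 to 1.11 (limma log2 fold change -0.0055, adjusted p = 0.954). Its sign was positive with median-ratio scaling (0.025) and with quantile normalization (0.028).

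Among the type II receptors, Tgfbr2 fell. Tgfbr2 (ENSMUSG00000032440.13, chr9:116084293-116175360, minus strand) encodes the receptor that binds TGF-beta and recruits ALK5. It was at 32.8, 30.8 and 29.0 FPKM in the BMP4 libraries and at 24.7, 24.9 and 25.6 with palovarotene. The lowest BMP4 library lay above the highest palovarotene library. Mean FPKM was 30.9 ± 1.88 with BMP4 and 25.1 ± 0.460 with palovarotene (SD, n = 3), and the log2 fold change was -0.29 ± 0.053 (SE; limma adjusted p = 0.00468). The absolute log2 fold change was larger in 31.1% of all genes tested.

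Acvr1 and Tgfbr2 were called lower in every setting tried, with log2 fold changes of -0.28 to -0.22 and of -0.33 to -0.24. The summed levels of the endothelial and leukocyte markers were also lower with palovarotene and that of the fibroblast and mesenchymal markers higher, as given above, while 4 of the 7 fibroblast and mesenchymal markers were called lower and 1 of the 4 endothelial markers higher; their part in the change of the receptor genes was not tested. In bulk RNA, fewer cells of a type and less RNA per cell cannot be told apart.

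Bmpr2 (ENSMUSG00000067336.6, chr1:59763400-59879014, plus strand) encodes the type II receptor dedicated to BMPs. It was at 8.43, 10.6 and 8.79 FPKM with BMP4 and at 10.6, 9.79 and 11.1 with palovarotene. BMP4 replicate 2 lay among the palovarotene libraries, and the other BMP4 libraries below them. The log2 fold change was 0.16 ± 0.090 (SE; limma adjusted p = 0.185), and the 95% interval of the ratio was 0.966 to 1.30. Without BMP4 replicate 2, Bmpr2 was called higher (log2 fold change 0.26, adjusted p = 0.0248).

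Acvr2a (ENSMUSG00000052155.5, chr2:48814109-48903269, plus strand) encodes an activin receptor that BMPs also use. It was at 3.04, 3.67 and 2.73 FPKM with BMP4 and at 3.45, 3.32 and 3.67 with palovarotene. BMP4 replicate 2 was as high as the highest palovarotene library, and the other BMP4 libraries lay below all 3. The log2 fold change was 0.12 (limma adjusted p = 0.333), with a 95% interval of the ratio of FPKM + 1 of 0.936 to 1.25. At this level the added 1 narrows the ratio, and the log2 fold change was 0.15 with a pseudocount of 0.1. Leaving out BMP4 replicate 3 gave 0.043 (adjusted p = 0.713), and leaving out BMP4 replicate 2 gave 0.20 (adjusted p = 0.0556). The bounds of Acvr2a overlap those of Orc4, a protein-coding gene on the other strand, with exons again not checked. The level of Acvr2a is uncertain in the same way as that of Acvr1.

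Tgfbr3 (ENSMUSG00000029287.14, chr5:107106570-107289629, minus strand) encodes betaglycan, which presents TGF-beta ligands to the receptor kinases and has no kinase of its own. It was at 12.1, 12.6 and 11.8 FPKM with BMP4 and at 13.3, 13.4 and 13.5 with palovarotene. The palovarotene libraries lay closely together and above all BMP4 libraries. Mean FPKM rose from 12.2 ± 0.379 with BMP4 to 13.4 ± 0.116 (SD, n = 3), and the log2 fold change was 0.13 ± 0.044 (SE; limma adjusted p = 0.0469). This call lay near the threshold: it held without BMP4 replicate 2 (adjusted p = 0.0381) and was lost without each of the other 5 libraries (0.0781 to 0.142) and with a replicate block (0.168).

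Bambi (ENSMUSG00000024232.1, chr18:3507957-3516404, plus strand) encodes a receptor-like protein that lacks the kinase and dampens signalling. Of the 8 genes it had the lowest level, 1.42, 1.28 and 1.23 FPKM with BMP4 and 1.45, 1.52 and 1.43 with palovarotene. The highest BMP4 library lay just below the lowest palovarotene library. The log2 fold change was 0.09 ± 0.053 (SE; limma adjusted p = 0.201), and the 95% interval of the ratio was 0.977 to 1.16. Because 1 is added to each value, this scale understates the change of a gene at this level; the log2 fold change was 0.15 with a pseudocount of 0.1, and the ratio of mean FPKM was 1.12.

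**Figure D2:**
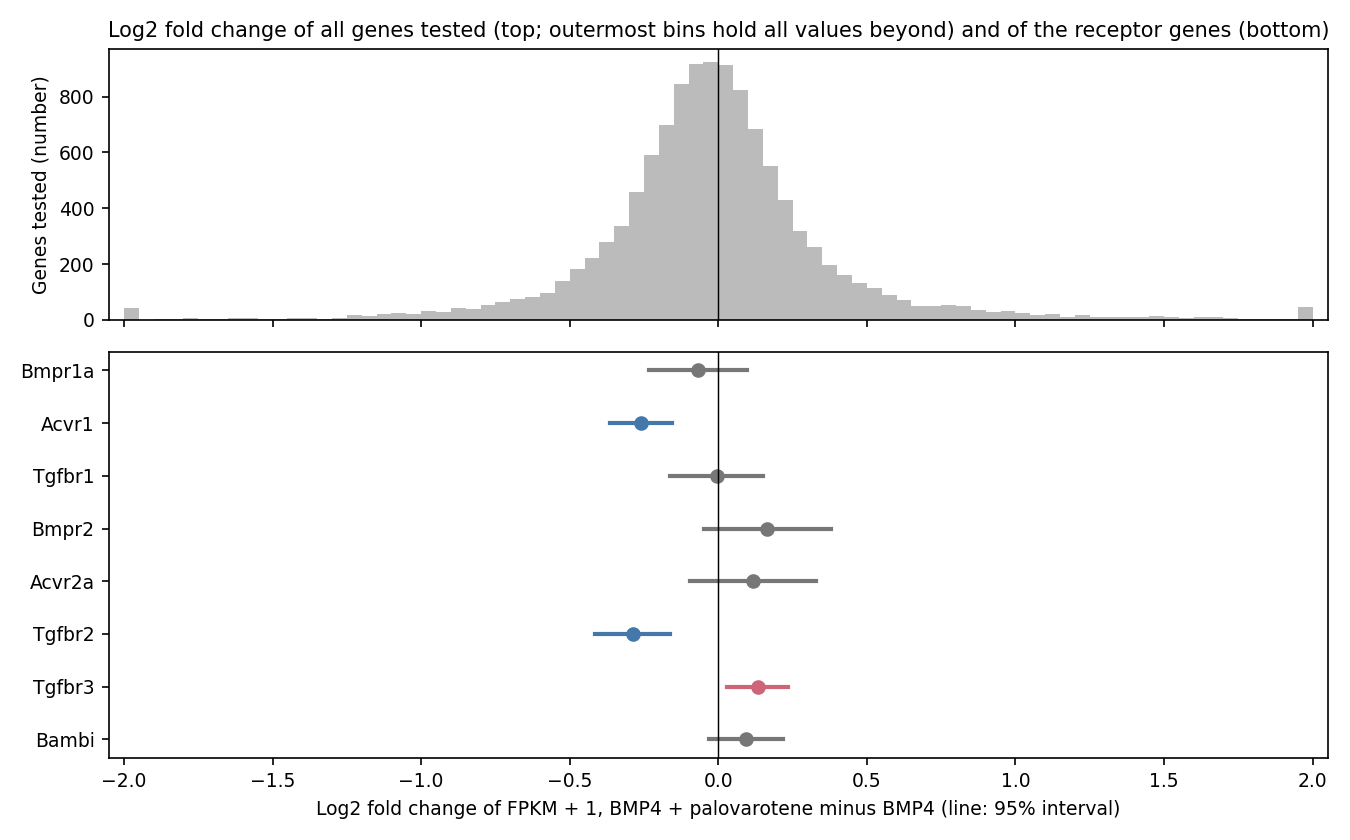
The top panel is a histogram of the log2 fold change of FPKM + 1 (x axis) over all 11584 genes tested, with values beyond the axis in the outermost bins; the bottom panel gives the 8 receptor genes on the same axis, as the estimate and its 95% interval, blue where called lower, red where called higher and grey where not called. The intervals of Acvr1 and Tgfbr2 lie below 0, that of Tgfbr3 lies just above 0, and the other 5 hold 0.

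The levels of the receptor genes spanned a wide range, in an order that was similar in both groups. With BMP4 the order from the top, in gene FPKM, was Tgfbr2, Bmpr1a, Tgfbr3, Acvr1, Bmpr2, Tgfbr1, Acvr2a and Bambi. The ranges over libraries overlapped between the neighbours Tgfbr2 and Bmpr1a and between Acvr1 and Bmpr2, and not between the other neighbours. With palovarotene Bmpr1a stood before Tgfbr2, with overlapping ranges, and Bmpr2 stood before Acvr1, with ranges that did not overlap. Of all genes tested, 16.7% had a higher mean level than Tgfbr2, 17.3% a higher one than Bmpr1a and 89.2% a higher one than Bambi. The sum of the 8 genes was 103 ± 4.88 FPKM in the BMP4 libraries and 96.5 ± 2.87 FPKM with palovarotene (SD, n = 3). Of that sum Tgfbr2 made up 30.1% ± 1.84 and 26.0% ± 0.608, Bmpr1a 27.1% ± 1.08 and 27.4% ± 1.00, and Acvr1 10.2% ± 0.473 and 8.90% ± 0.447.

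Summed by role, the listed receptor genes of each kinase class were lower with palovarotene in FPKM as deposited, with no overlap of the groups. The type I genes Acvrl1, Acvr1b and Bmpr1b, which also had a row, are not in these sums. The 3 type I genes summed to 44.2, 48.8 and 44.4 FPKM with BMP4 and to 43.5, 40.4 and 43.7 with palovarotene. Their means were 10.5 and 8.58 FPKM for Acvr1, 27.8 and 26.4 for Bmpr1a, which was not called, and 7.54 and 7.51 for Tgfbr1. The 3 listed type II genes summed to 44.3, 45.1 and 40.6 FPKM with BMP4 and to 38.8, 38.0 and 40.3 with palovarotene. Within that sum only Tgfbr2 had a lower mean, and the means of Bmpr2 (9.29 and 10.5 FPKM) and Acvr2a (3.15 and 3.48 FPKM) were higher with palovarotene. With median-ratio scaling the groups overlapped in both sums (differences of -2.22 FPKM for type I and -3.27 FPKM for type II, adjusted exact permutation p = 0.5 and 0.267). Without BMP4 replicate 2 the type I difference was -1.77 FPKM, against -3.26 FPKM with all libraries. The ratio of Tgfbr2 to Tgfbr1, which encode the partners of the TGF-beta receptor, was 4.10 ± 0.277 with BMP4 and 3.35 ± 0.203 with palovarotene (SD, n = 3). The ratio of Bambi to the summed type I genes was 0.0287 ± 0.00299 and 0.0345 ± 0.00269. Each of these 4 differences had p = 0.1, before and after Benjamini-Hochberg adjustment over the 4, in a two-sided exact permutation test, the smallest p that 3 against 3 libraries allow, so none could pass 0.05.

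BMP4 replicate 2 was the highest of the 3 BMP4 libraries in 6 of the 8 receptor genes, all but Tgfbr2 and Bambi; over all genes tested it was the highest in 32.5%. Among the palovarotene libraries, replicate 3 was the highest in 5 of the 8, beside 26.8% of all genes.

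At the level of transcripts the picture rested on few rows, since 6 of the 8 genes had 1 listed transcript each. Of the 11 transcripts, Tgfbr2-202 was called lower and none higher (limma, adjusted over all 21101 transcripts tested); of all transcripts tested 12.9% were called, 6.49% higher and 6.42% lower. Tgfbr2-202, the transcript with the 75-base exon shown above, was at 32.5, 29.9 and 28.2 FPKM with BMP4 and at 24.6, 24.6 and 25.4 with palovarotene. Mean FPKM was 30.2 ± 2.18 with BMP4 and 24.9 ± 0.485 with palovarotene (SD, n = 3), and the log2 fold change was -0.27 ± 0.062 (SE; limma adjusted p = 0.0477). The call held without BMP4 replicate 3 (adjusted p = 0.0496) and was lost without each of the other 5 libraries (0.0625 to 0.149).

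Tgfbr2-201, which lacks that exon, was at 1.49, 2.83 and 2.72 FPKM with BMP4 and at 0.959, 1.46 and 1.10 with palovarotene. The groups did not overlap, as in 34.4% of all transcripts tested. The log2 fold change was -0.60 ± 0.21 (SE; limma adjusted p = 0.143); without BMP4 replicate 1 it was -0.81 (adjusted p = 0.0380). The transcript with the exon made up 92.7% ± 2.52 of the summed Tgfbr2 transcripts with BMP4 and 95.5% ± 0.974 with palovarotene (SD, n = 3; two-sided exact permutation p = 0.2, adjusted over 5 transcripts p = 0.5). The annotation also gives them different lengths, 8092 bases for Tgfbr2-202 and 3476 for Tgfbr2-201, so reads outside the exon bear on the split as well.

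**Figure D3:**
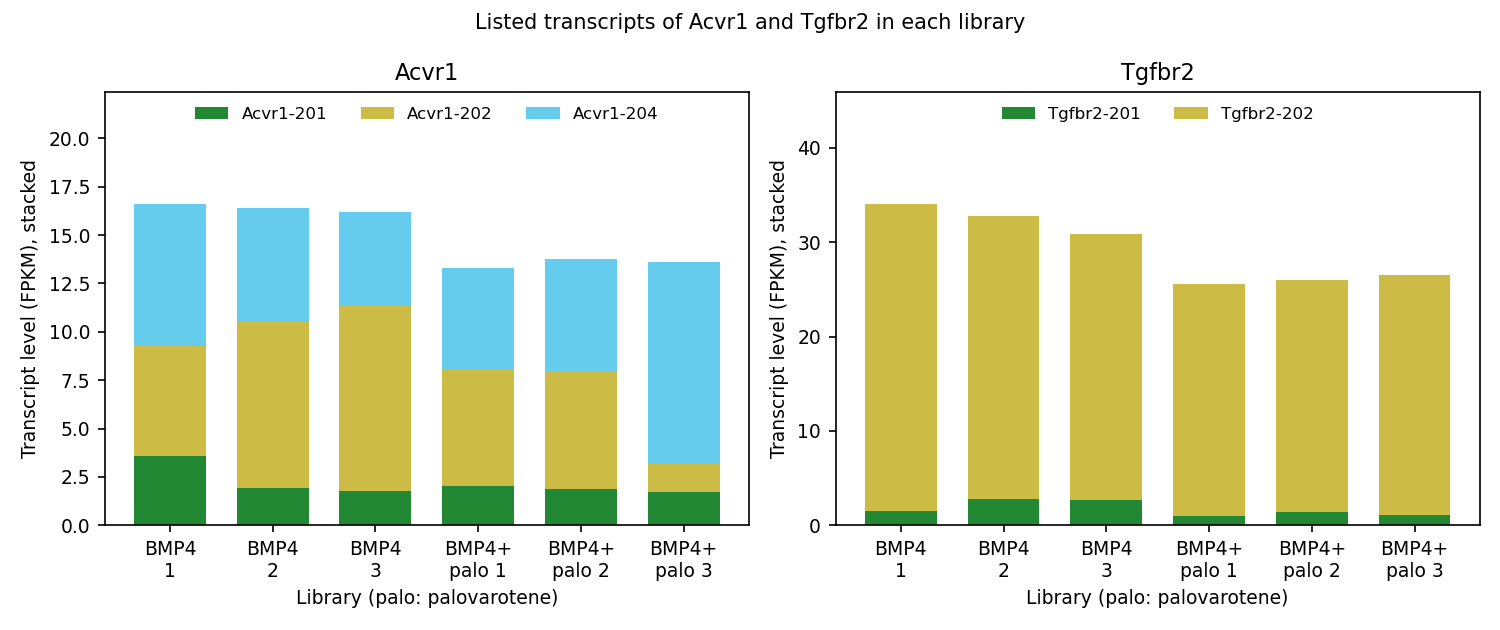
Stacked FPKM (y axis) of the listed transcripts of Acvr1 (left) and Tgfbr2 (right) in each of the 6 libraries. The stacks are lower in the 3 palovarotene libraries in both panels, the parts of Acvr1 differ widely between libraries of 1 group, and Tgfbr2-202 makes up most of every Tgfbr2 stack.

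For Acvr1 the sum of the 3 listed transcripts was steady and its parts were not. The sum was 16.6, 16.4 and 16.2 FPKM with BMP4 and 13.3, 13.8 and 13.6 with palovarotene, so that the groups did not overlap. Acvr1-202 alone was at 5.75, 8.66 and 9.54 FPKM and at 6.02, 6.09 and 1.45, and Acvr1-204 at 7.25, 5.82 and 4.86 and at 5.26, 5.77 and 10.4. BMP4 + palovarotene replicate 3 held the lowest Acvr1-202 and the highest Acvr1-204 value. None of the 3 was called (limma log2 fold changes -0.83, 0.18 and -0.21 for Acvr1-202, Acvr1-204 and Acvr1-201, adjusted p = 0.337 to 0.718). Without BMP4 + palovarotene replicate 3 the value of Acvr1-202 was -0.32. In GENCODE vM21 the 3 transcripts have identical coding segments, 1527 bases long, and differ outside them. The differences in their shares of the sum did not pass the test (two-sided exact permutation p = 0.3 to 1), and 3 against 3 libraries could not have given a p below 0.1.

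None of the other 6 transcripts was called. Bmpr1a-201, Tgfbr1-201, Bmpr2-201, Acvr2a-201, Tgfbr3-201 and Bambi-201 had log2 fold changes between -0.07 and 0.17 (limma adjusted p = 0.168 to 0.964). The gene value was 0.717 to 0.718 times the transcript value for Bmpr2 and the same value for Bambi, so gene and transcript FPKM are not interchangeable. Bmpr2 and Tgfbr3 overlap other gene models of the annotation, some on the same strand, and Tgfbr1, Tgfbr2 and Bambi overlap none. GENCODE vM21 annotates from 1 to 6 transcripts for each of the 8 genes, of which 1 to 3 had a row.

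Promoter letters were searched for 6 motifs on both strands in the 8 RefSeq promoters of Bmpr1a, Acvr1, Tgfbr1, Bmpr2, Acvr2a, Acvr2b and Tgfbr2, where Tgfbr1 has 2. No promoter of Tgfbr3 or Bambi is included, and Acvr2b had no measured level. The counts are thus of promoters and not of the 8 receptor genes with a row. Of the hexamers that retinoid receptors bind, only AGGTCA and AGTTCA were searched. Forms that start with G, such as GGTTCA in the Acvr1 sequence above, were not counted. The searched hexamers occurred in 1 of the 8, that of Tgfbr2. There AGTTCA lies on the opposite strand and is shown above as TGAACT. Of all 32851 promoters, 27.7% hold a searched hexamer. A direct repeat of the searched hexamers, spaced by 2 or by 5 bases, was in none of the 8 and in 0.0396% of all promoters for each spacing. Of the letters bound by SMAD proteins, CAGAC was in 4 of the 8 (49.6% of all), GGCGCC in 3 (11.9%) and GTCTAGAC in none (0.213%). The Acvr1 promoter held none of the 6, and was 83.7% G and C, beside 59.0% for Tgfbr2 and a median of 52.7%. The promoters with GGCGCC were 59.3% (Bmpr2), 74.7% (Tgfbr1) and 79.3% (Bmpr1a) G and C. The part of base content in the number of matches was not tested. A match is a description and not a bound site.

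The genes whose pattern was most like that of the called receptor genes were searched among 7378 genes (those whose mean reached 5 FPKM), by the root mean square difference of centred log2(FPKM + 1) values over the 6 libraries. For Acvr1 they were Ranbp10 (difference 0.0097), Nrd1 (0.018) and Galnt18 (0.019). Ranbp10, the nearest, was at 11.6, 11.9 and 12.1 FPKM and at 9.53, 9.93 and 9.57. For Tgfbr2 they were Tbc1d2b (0.020), Snx30 (0.021) and Cramp1l (0.021), and for Tgfbr3 Brd7 (0.0065), Fam3c (0.018) and Smad4 (0.018). Smad4, which encodes the SMAD shared by all branches of the pathway, was at 27.2, 27.6 and 26.5 FPKM with BMP4 and at 29.4, 28.9 and 29.5 with palovarotene.

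Among other receptors and co-receptors of the family, 2 of 9 tested genes were higher and 1 lower (median log2 fold change -0.06). Neo1, which encodes neogenin, a receptor that binds repulsive guidance molecules, rose by 0.52 on the log2 scale, from 16.1 ± 0.923 to 23.5 ± 1.00 FPKM (SD, n = 3). Rgmb, which encodes a BMP co-receptor of that family, rose by 0.29, and Rgma, its relative, fell by 0.49 (limma adjusted p = 0.000425 for Neo1, 0.0117 for Rgmb and 0.000884 for Rgma). The kinase receptor genes Acvrl1, Acvr1b and Bmpr1b and the co-receptor gene Eng did not pass the test (adjusted p = 0.707, 0.519, 0.298 and 0.189).

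Of 22 genes that act on receptor trafficking, turnover or signal relay, 2 rose and 7 fell (median log2 fold change -0.13). Pmepa1, a feedback inhibitor gene of TGF-beta signalling, was at 24.5 ± 0.0217 FPKM with BMP4 and rose to 75.7 ± 1.29 (SD, n = 3; limma log2 fold change 1.59, adjusted p = 3.55e-07). Cav1, the gene of caveolin 1, fell by 1.19 and Ldlrad4, a relative of Pmepa1, by 0.86 on the log2 scale. The largest absolute log2 fold change among the 8 receptor genes was 0.29, that of Tgfbr2.

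Ligand genes moved in both directions, with 5 of 13 tested higher and 5 lower (median log2 fold change -0.13). Inhbb, which encodes the beta B subunit of activin and inhibin, was at 60.7 ± 2.56 FPKM with BMP4 and fell to 6.87 ± 0.0961 (SD, n = 3; limma log2 fold change -2.97, adjusted p = 1.23e-07). Bmp4 fell by 1.21, and Tgfb2 rose by 0.99.

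Of the 8 SMAD genes, 4 rose and 2 fell (median log2 fold change 0.17). Smad3, which encodes a substrate of the TGF-beta and activin receptors, was at 8.50 ± 0.282 FPKM with BMP4 and rose to 26.0 ± 1.12 (SD, n = 3), 3.05 times the level (limma adjusted p = 1.85e-06). Smad1, which encodes a substrate of the BMP receptors, rose by 0.89 and Smad6, which encodes an inhibitor, by 0.75.

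Secreted antagonists fell in 8 of 12 tested genes and rose in 2 (median log2 fold change -0.23). Grem1, which encodes an antagonist that binds BMPs, fell by 3.20 on the log2 scale. Chrdl1, which encodes a chordin-like antagonist, was at 0.0491 ± 0.00744 FPKM with BMP4 and rose to 5.88 ± 0.245 (SD, n = 3; limma log2 fold change 2.71, adjusted p = 2.65e-07). At so low a level the added 1 sets this value, which was 5.33 with a pseudocount of 0.1. Target genes of the pathway were split, with 3 of 9 higher and 5 lower (median log2 fold change -0.18): Id2 rose by 0.99, and Atoh8 and Id4 fell by 0.66 and 0.59. Id2 and Id4 encode inhibitors of helix-loop-helix factors, and Atoh8 encodes a helix-loop-helix factor. The lists of the pathway stand beside 43.0% called and a median log2 fold change of -0.03 over all genes tested, and no test compared the receptor genes with them.

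**Figure D4:**
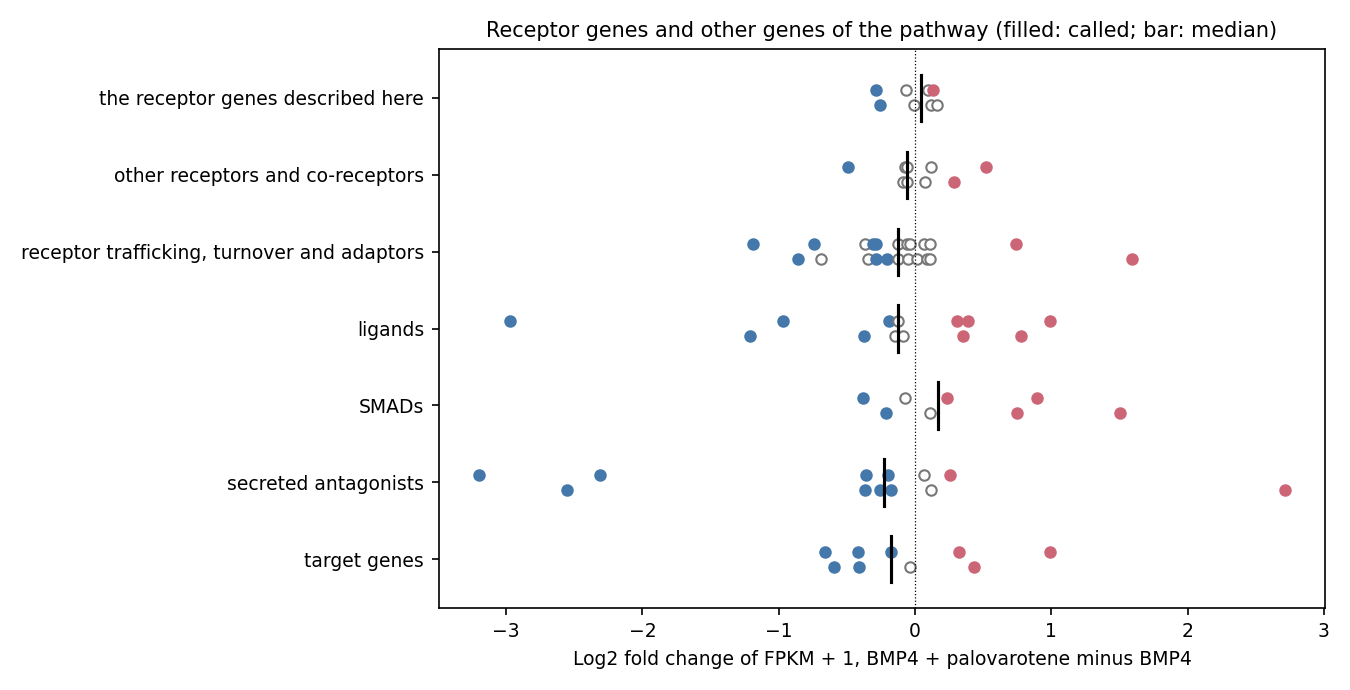
Log2 fold change of FPKM + 1 (x axis) of the 8 receptor genes and of the tested genes of 6 lists of the pathway; each point is 1 gene, filled blue where called lower, filled red where called higher and open where not called, and the vertical bars are medians. The receptor genes lie between -0.29 and 0.16, while the lowest ligand gene lies at -2.97 and the lowest antagonist gene at -3.20.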

How the data were processed

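FPKM values per gene and per transcript were computed by the authors and deposited, per the file headers; FastQC, cutadapt, HISAT2, StringTie and the build GRCm38 are named in the submitters' processing notes, without versions or roles. Each table had 1 line without values, and no column of values per sample was unused. All rows were of protein-coding type, and the higher group mean was never below 0.5 FPKM. No steps of whole fragments were found in low values (best mean cosine 0.163 to 0.258, and 0.181 to 0.220 after jitter), so the depth is unknown. Rows whose mean reached 0.5 FPKM (11584 genes, 21101 transcripts) were tested with limma 3.58.1 (R 4.3.3) on log2(FPKM + 1), with a variance trend, no replicate block and Benjamini-Hochberg adjustment, and called at an adjusted p below 0.05. Sums, ratios and shares were tested by exact permutation. The fit was tested on simulated data with known changes.

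Promoters are RefSeq's (GRCm38.p6), and exons are GENCODE vM21's. The gene identifiers had the same version there for all listed receptor genes except Bambi. No protein sequences were used here. Receptor genes and lists were chosen with earlier results of these data known. Named genes are the 9 receptors, the 3 called genes of each pathway list with the largest absolute log2 fold change and the 3 genes nearest in pattern; others were named with their values known, and 1 gene that the rule names is not reported here. Alternatives tried were another pseudocount, filters, scalings, a fit with no trend, one with a block for the replicate number, and fits without each library. A count test was planned only for counts and was not run.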

Additional observations from a re-analysis of the deposited data

How the results depend on the processing

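Acvr1 and Tgfbr2 kept their direction and their call under all 13 alternatives. Leaving out 1 library gave log2 fold changes of -0.28 to -0.25 for Acvr1, -0.33 to -0.24 for Tgfbr2, 0.11 to 0.15 for Tgfbr3, 0.10 to 0.26 for Bmpr2, and -0.055 to 0.039 for Tgfbr1. The sign of Tgfbr1 was also reversed with quantile normalization (0.028; Tgfbr1-201 at 0.0060) and median-ratio scaling (0.025; 0.0080). Between 0 and 2 receptor genes were then called higher, and 0 or 1 transcript lower. Tgfbr2-202 was not called with a pseudocount of 0.1, quantile normalization, median-ratio scaling or no trend, which leaves 0 transcripts called (adjusted p = 0.0509, 0.0514, 0.0516 and 0.0934). The cause was not tested.

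Replicate numbers were shared by the groups, but same-numbered libraries did not deviate together over all genes tested (r of deviations -0.064, -0.136 and -0.021). Pairs with different numbers gave -0.067 to 0.128. These values do not settle whether libraries of the same number were handled together. With the replicate block Tgfbr3 (log2 fold change 0.13, adjusted p = 0.168) and Tgfbr2-202 lost their calls, leaving 0 receptor genes higher and 0 transcripts lower, and 402 transcripts over the whole table were called higher and 313 lower, against 1370 and 1354.

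With a filter at a mean of 5 FPKM fewer genes were tested, and 1419 were called higher and 1692 lower, against 2217 and 2759; of the lists, 5 trafficking genes and 6 ligand genes were called, against 9 and 10. Leaving out 1 library gave 1692 to 2177 genes higher and 2089 to 2663 lower, 741 to 1197 transcripts higher and 711 to 1144 lower. With libraries left out, Acvr2a ranged from 0.043 to 0.20, Acvr1-202 from -1.09 to -0.32, Acvr1-201 from -0.35 to 0.013, Acvr1-204 from -0.085 to 0.35 and Tgfbr1-201 from -0.061 to 0.037. Acvr1-201 reversed without BMP4 replicate 1 (share difference between -2.77 and 2.52 percentage points over the libraries left out), Acvr1-204 without BMP4 + palovarotene replicate 3, and Tgfbr1-201 without BMP4 replicate 2 (0.024) or BMP4 + palovarotene replicate 1 (0.00042) or 2. FPKM gives no depth, so no counting error could be set beside low values such as those of Bambi and Tgfbr2-201.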
